A study of Mus musculus with 8 samples.

Results

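The organic ion transporters of the Slc22a and Slco gene families were followed in 2 tissues of Crtc1-/- and Crtc1+/+ mice, the liver and the white fat pad beside the epididymis (eWAT). Members were all genes of the count table whose symbol begins with Slc22a or Slco and a number. These were 39 of 19348 genes, namely 25 Slc22a genes and 14 Slco genes. The mice were C57BL/6 males aged 12 weeks that had been fed a normal diet and fasted for 16 h. Crtc1-/- mice carried a whole-body deletion made by CRISPR/Cas9 in the gene of the CREB-regulated transcription coactivator Crtc1, and Crtc1+/+ mice were littermates. RNA-seq was carried out on 2 libraries per group, in the groups liver Crtc1+/+, liver Crtc1-/-, eWAT Crtc1+/+ and eWAT Crtc1-/-, 8 libraries in all. Both tissues were taken from 2 mice per genotype by the study's methods. The labels do not tie a liver library to an eWAT library of the same mouse, and the spread measured is that between 2 mice of a group.

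SLC22 proteins move organic ions across the plasma membrane. One branch takes up organic cations such as drugs and monoamines (the OCT subfamily), one carries carnitine and related zwitterions (OCTN), one carries organic anions such as urate, conjugated steroids and dicarboxylates (OAT), and a few members have no settled substrate. SLCO proteins, also called organic anion transporting polypeptides, take up bile acids, bilirubin, steroid conjugates, thyroid hormones and prostaglandins without sodium, and those of the Slco1 group are best known from the hepatocyte. In liver these families feed bile acid and drug clearance, and carnitine taken up by OCTN proteins is needed to bring fatty acids into mitochondria.

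Values are given as CPM, the counts per 1000000 counts after TMM scaling within a tissue, when libraries of a tissue are compared. CPM values of the 2 tissues are thus not on 1 scale, and tissues were tested only in a fit scaled over all 8 libraries. FPKM, the deposited fragments per kilobase of transcript scaled to sequencing depth, is used when genes are compared with each other, because it is a level per transcript length. The total count lay between 16560070 and 19721464 per library, so that 3 counts in a library stood for 0.144 to 0.208 CPM. A member was taken as above the floor in a group when at least 1 of its 2 libraries held more than 3 counts.

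Several facts of these libraries touch the transporters. Crtc1 itself was not lower in libraries labelled Crtc1-/-. It measured 11.7 and 9.86 CPM in liver Crtc1+/+ and 22.1 and 18.0 CPM in liver Crtc1-/-, and 32.5 and 33.7 CPM in eWAT Crtc1+/+ against 58.5 and 33.6 CPM in eWAT Crtc1-/-. Counts are per gene, so the deleted exons were not analysed here and the genotypes are given as labelled. Both eWAT libraries labelled Crtc1+/+ were rich in RNA of the epididymis, the sperm duct on which this fat pad lies. The 35 measured epididymis markers summed to 95766 and 112563 CPM there and to 125 and 23.3 CPM in eWAT Crtc1-/-, whereas the 16 adipocyte markers summed to 2577 and 4416 CPM against 49546 and 28687 CPM. The 13 measured hepatocyte markers summed to 131834 CPM in eWAT Crtc1-/- replicate 2, against 1216 CPM in replicate 1 and 5755 and 736 CPM in eWAT Crtc1+/+, with 200322 to 231787 CPM in the liver libraries. Endothelial markers, 12 genes, summed to 387 and 402 CPM in eWAT Crtc1+/+ and to 6457 and 4348 CPM in eWAT Crtc1-/-, and the 12 macrophage markers to 235 and 129 CPM against 855 and 513 CPM. In bulk tissue fewer cells of a type and less RNA per cell cannot be told apart, and genotype and tissue make-up cannot be told apart in eWAT.

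The promoters of 6 members are shown because the results turn on them. They are the 3 neighbouring Slco1 genes that take up bile acids and steroid conjugates in hepatocytes, the carnitine transporter Slc22a5, and Slc22a3 and Slco2b1, which were higher in eWAT labelled Crtc1-/-. Each line is the 250 bases before the gene start used in the RefSeq promoter table (GRCm38.p6; the outermost where it lists several), written 5′ to 3′ on the strand of the gene. Capitals mark a short CRE motif (TGACG or CGTCA, the core bound by CREB), an HNF1 motif (GTTAAT or ATTAAC, from the site of a hepatocyte factor) or a STAT motif (TTCNNNGAA, its own reverse complement). No capitals means that none of these letters occurred in the window.
Slco1a1: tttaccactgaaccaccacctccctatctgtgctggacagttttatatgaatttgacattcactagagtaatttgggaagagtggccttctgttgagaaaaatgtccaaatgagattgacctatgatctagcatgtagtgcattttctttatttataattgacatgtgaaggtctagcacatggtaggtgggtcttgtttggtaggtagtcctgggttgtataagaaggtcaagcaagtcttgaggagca
Slco1a4: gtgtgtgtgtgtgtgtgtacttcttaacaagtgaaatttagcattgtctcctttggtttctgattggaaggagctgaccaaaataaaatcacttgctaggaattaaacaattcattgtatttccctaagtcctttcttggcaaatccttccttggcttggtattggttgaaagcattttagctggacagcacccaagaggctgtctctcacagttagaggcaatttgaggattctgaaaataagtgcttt
Slco1b2: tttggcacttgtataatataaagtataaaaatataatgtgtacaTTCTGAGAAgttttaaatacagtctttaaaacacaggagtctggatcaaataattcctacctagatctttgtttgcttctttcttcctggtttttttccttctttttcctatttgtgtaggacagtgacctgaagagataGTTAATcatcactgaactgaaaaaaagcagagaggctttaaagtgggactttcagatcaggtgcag
Slc22a5: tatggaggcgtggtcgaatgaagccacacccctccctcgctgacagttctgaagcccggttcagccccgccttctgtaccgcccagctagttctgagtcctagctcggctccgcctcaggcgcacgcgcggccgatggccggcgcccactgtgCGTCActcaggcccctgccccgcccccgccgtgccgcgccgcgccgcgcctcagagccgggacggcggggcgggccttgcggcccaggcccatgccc
Slc22a3: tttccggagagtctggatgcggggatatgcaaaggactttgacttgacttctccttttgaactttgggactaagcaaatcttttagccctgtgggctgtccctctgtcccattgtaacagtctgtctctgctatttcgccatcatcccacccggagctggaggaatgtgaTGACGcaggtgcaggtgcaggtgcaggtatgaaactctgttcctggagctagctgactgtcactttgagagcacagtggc
Slco2b1: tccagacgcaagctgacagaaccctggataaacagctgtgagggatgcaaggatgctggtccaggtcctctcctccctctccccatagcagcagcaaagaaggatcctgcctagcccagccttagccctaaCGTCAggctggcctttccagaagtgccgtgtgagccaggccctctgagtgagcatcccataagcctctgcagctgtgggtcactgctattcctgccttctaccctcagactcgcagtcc
These stretches lie at chr6:141946963-141947212 (minus strand), chr6:141856221-141856470 (minus strand), chr6:141629268-141629517 (plus strand), chr11:53891704-53891953 (minus strand), chr17:12507705-12507954 (minus strand) and chr7:99711341-99711590 (minus strand). For Slco1a4, Slco1b2 and Slc22a5 the annotated gene begins farther out, so that the last 64, 66 and 93 bases of the printed stretch lie within the gene. Slc22a3 held TGACG from -80 to -76 and Slc22a5 held CGTCA from -97 to -93, counted from that start, where the last base of the Slc22a5 match is the first of the annotated gene. Slco2b1 held CGTCA from -119 to -115, and Slco1b2 held the STAT motif from -206 to -198 and the HNF1 motif from -66 to -61, the first bases of the annotated gene.

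Promoters were available for 34 of the 39 members, 39 promoters in all because some genes have several starts. The full CRE (TGACGTCA) was found in 0 of these 39 and in 1.55% of 32851 promoters of all genes. The short CRE motif, which is part of the full CRE, was in 6 of 39 (15.4%) against 17.8% of all promoters. The HNF1 motif was in 4 of 39 (10.3%) against 6.43%, and the STAT motif in 7 of 39 (17.9%) against 7.02%. Both strands were searched. A match is a description of letters, and neighbouring family members share sequence, so that their promoters are not independent.

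Family members lay close together in the genome. The 6 measured Slco1 genes occupied 798.6 kb at chr6:141524354-142322981, from Slco1c1 and Slco1b2 over Slco1a4, Slco1a1 and Slco1a6 to Slco1a5. Slc22a19, Slc22a26, Slc22a27, Slc22a28, Slc22a29 and Slc22a30 occupied 732.0 kb at chr19:7673075-8405111. The OCTN genes Slc22a5, Slc22a21 and Slc22a4 spanned 165.5 kb at chr11:53864542-54030040. Counts were not whole numbers in at least 1 library for 6 members, namely Slc22a5, Slc22a21, Slc22a27, Slc22a28, Slc22a29 and Slc22a30. Fractions arise where a counting tool shares out reads that match several genes. The tool is not given in the sources used here, and the values of these 6 are less certain than those of the other members.

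More members were seen in eWAT than in liver, and more genes in general. The count filter of the genotype tests passed 15391 genes in eWAT and 11707 in liver. Above the floor were 20 members in liver Crtc1+/+, 21 in liver Crtc1-/-, 29 in eWAT Crtc1+/+ and 30 in eWAT Crtc1-/-, and 18 were above it in all 4 groups. The share of all genes above the floor was not counted. In eWAT Crtc1-/- several members passed through replicate 2 alone, such as Slc22a26 (3 and 123 counts) and Slco1a1 (3 and 220 counts). Others passed through replicate 1 alone, such as Slc22a12 (19 and 2 counts). The renal anion transporter Slc22a6 and Slc22a20 had no count in any library. Slc22a8, the other main renal anion transporter, together with Slc22a19, Slc22a22 and Slco1a6, had at most 3 counts in every library, so that 6 members in all were at the floor throughout. The heat map of members by library shows a liver block of OAT and Slco1 genes, which is repeated in eWAT Crtc1-/- replicate 2.

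**Figure D1:**
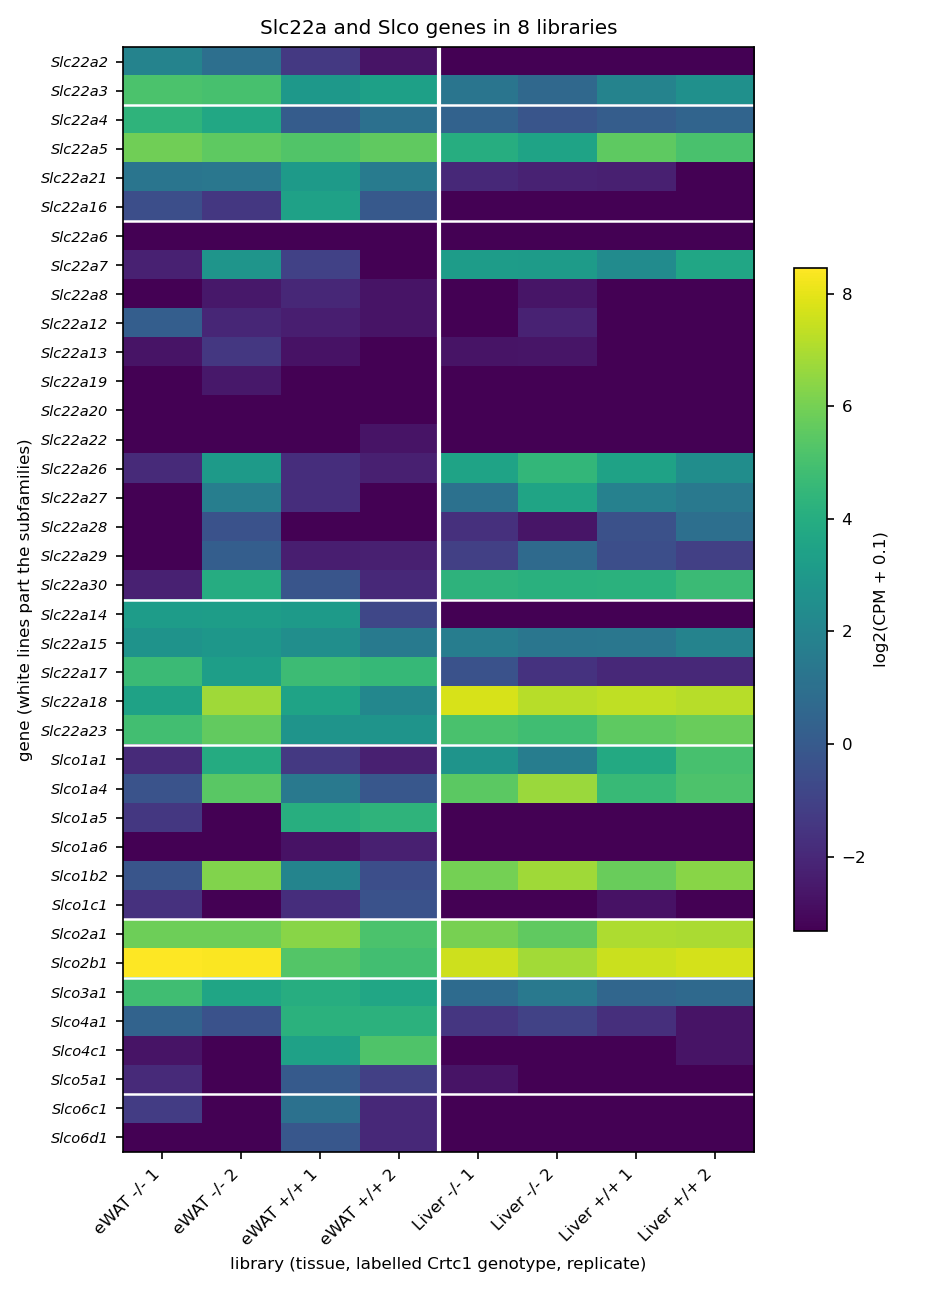
Heat map of 38 Slc22a and Slco genes (rows, grouped by subfamily) in the 8 libraries (columns, by tissue, labelled genotype and replicate); colour is log2(CPM + 0.1). Slc22a18 is bright in liver at 147 to 211 CPM, and eWAT Crtc1-/- replicate 2 shows the liver-type rows (Slco1b2 at 74.9 CPM) that replicate 1 does not (0.769 CPM).

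Of the members reported here, the orphan Slc22a18 was the most abundant per length in liver Crtc1+/+, at 111 ± 8.19 FPKM (SD, n = 2). It was followed by Slco2b1, which carries steroid sulphates and many drugs, at 50.2 ± 3.22 FPKM, and by the prostaglandin transporter Slco2a1 at 32.5 ± 1.03 FPKM. Slco1b2, the mouse hepatocyte transporter of unconjugated bile acids and bilirubin, came next at 21.2 ± 5.98 FPKM. The SDs of neighbours in this order did not reach each other. In liver Crtc1-/- their order per length was Slc22a18 (138 ± 27.6 FPKM), Slco2b1 (40.7 ± 14.4), Slco1b2 (28.3 ± 11.4) and Slco1a4 (20.9 ± 11.9), where the ranges of 1 SD overlapped among the last 3.

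In eWAT Crtc1+/+ the members lay closer together. Slc22a5 measured 17.6 ± 1.48 FPKM, Slco2a1 17.1 ± 10.1 FPKM, the lipocalin receptor Slc22a17 12.8 ± 1.29 FPKM, Slco2b1 10.1 ± 2.25 FPKM and Slco4a1 9.96 ± 0.191 FPKM. In eWAT Crtc1-/- Slco2b1 led at 80.2 ± 12.8 FPKM. Slc22a18 measured 37.7 ± 42.1 FPKM, a mean that rested on replicate 2, and Slc22a5 (18.1 ± 5.97) and Slco2a1 (13.4 ± 1.90 FPKM) followed.

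To see which transporters differed by genotype in eWAT, the 2 Crtc1-/- and 2 Crtc1+/+ libraries were compared with edgeR's quasi-likelihood test over 15391 genes, of which 21 were members. By this test with Benjamini-Hochberg adjustment 7 of the 21 passed an adjusted p of 0.05, beside 12.2% of all genes tested. The members higher in Crtc1-/- were Slco2b1, Slc22a4, Slc22a23 and Slc22a3 (6.65% of all genes were called higher), and those lower were Slco4c1, Slco1a5 and Slco4a1 (5.54% of all genes were called lower). Of the 21 members 7 had both Crtc1-/- libraries above both Crtc1+/+ libraries and 5 had both below, beside 31.3% and 35.4% of all genes tested. The median log2 fold change was 1.03 over the 21 members and -0.05 over all genes tested. An exact permutation test of 2 libraries against 2 cannot give a two-sided p below 0.333, so single values were not tested that way.

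Slco2b1 (chr7:99657804-99711340) was at 39.0 and 29.4 CPM in eWAT Crtc1+/+ and at 351 and 336 CPM in eWAT Crtc1-/-. Both Crtc1-/- libraries lay above both Crtc1+/+ libraries. Its log2 fold change was 3.33 (SE 0.33, adjusted p = 0.0169 by edgeR's quasi-likelihood test). Slco2b1 became the most abundant member of the group. Slco2a1, which takes prostaglandins out of the extracellular space and is known from endothelium, was at 82.3 and 34.9 CPM in Crtc1+/+ and at 58.1 and 57.6 CPM in Crtc1-/-, so that the Crtc1-/- libraries lay between the Crtc1+/+ libraries. In the same comparison 11 of the 12 endothelial markers, 11 of the 16 adipocyte markers and 3 of the 12 macrophage markers were called higher. Of these lists 0 genes were called lower, and their link to the transporters was not tested. The ratio of Slco2b1 to Slco2a1 counts within a library was 0.474 and 0.841 in Crtc1+/+ and 6.05 and 5.83 in Crtc1-/-.

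Of the OCTN transporters Slc22a4 and Slc22a5, neighbours on chromosome 11, the first was called in eWAT and the second was not. Slc22a4, which carries the antioxidant ergothioneine, was at 0.963 and 1.92 CPM in eWAT Crtc1+/+ and at 20.0 and 13.4 CPM in eWAT Crtc1-/-, with no overlap. It rose with a log2 fold change of 3.53 (SE 0.58, adjusted p = 0.0291 by edgeR). Slc22a5, the high-affinity carnitine transporter, was at 38.5 and 47.2 CPM in Crtc1+/+ and at 60.6 and 45.6 CPM in Crtc1-/-. These ranges overlapped, and its log2 fold change of 0.31 did not pass the test (adjusted p = 0.494 by edgeR). The count ratio of Slc22a4 to Slc22a5 was 0.025 and 0.0407 in Crtc1+/+ and 0.330 and 0.294 in Crtc1-/-. The third neighbour, the mouse carnitine transporter Slc22a21, was at 8.52 and 2.85 CPM against 2.25 and 2.43 CPM, and the testis carnitine transporter Slc22a16 at 10.6 and 0.881 CPM against 0.604 and 0.277 CPM. Neither passed the adjusted threshold by edgeR, DESeq2 called Slc22a16 (adjusted p = 0.0258), and in both most of the Crtc1+/+ value came from replicate 1.

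Among the organic cation transporters Slc22a3, which takes up monoamines outside neurons, was at 7.56 and 10.3 CPM in eWAT Crtc1+/+ and at 34.4 and 32.5 CPM in eWAT Crtc1-/-. Both Crtc1-/- libraries were higher than both Crtc1+/+ libraries. The log2 fold change was 1.90 (SE 0.35, adjusted p = 0.0359 by edgeR). Its neighbour Slc22a2, the cation transporter of the kidney, was low throughout, at 0.289 and 0.0518 CPM against 3.73 and 1.87 CPM, and did not pass by edgeR (log2 fold change 3.98, SE 1.04, adjusted p = 0.0702). It was called by DESeq2 (adjusted p = 0.01005) and by limma on log2(FPKM + 0.1) and log2(FPKM + 1) (adjusted p = 0.0196 and 0.0410). Slc22a23, an orphan transporter, was at 6.79 CPM in both Crtc1+/+ libraries and at 29.8 and 50.02 CPM in the Crtc1-/- libraries. It was higher in both Crtc1-/- libraries, by 2.55 on the log2 scale (SE 0.41, adjusted p = 0.0277 by edgeR).

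The 3 members that fell were at or below 1.26 CPM in eWAT labelled Crtc1-/-. Slco4a1, which takes up thyroid hormones, was at 18.1 and 19.1 CPM in Crtc1+/+ and at 1.26 and 0.694 CPM in Crtc1-/-, and fell by 4.23 on the log2 scale (SE 0.53, adjusted p = 0.0195 by edgeR). Slco1a5, an uptake transporter of bile acids known from intestine and kidney, was at 16.7 and 20.0 CPM against 0.275 and 0 CPM. It had 732 counts over both Crtc1+/+ libraries and 5 over both Crtc1-/- libraries, a ratio of 119 per depth (exact 95% interval 50.8 to 368, adjusted p = 0.0275 by edgeR). Slco4c1, known from the kidney, where it carries thyroid hormone and cardiac glycosides, was at 10.5 and 36.6 CPM against 0.0549 and 0 CPM. It had 925 counts against 1, a ratio of 753 (exact 95% interval 135 to 29800, adjusted p = 0.0208 by edgeR). These intervals cover counting error only. All 3 were high in the epididymis-rich libraries and low in the others, and the 35 epididymis markers moved the same way, with 31 called lower and 0 called higher. The 5 tested markers of the clear and narrow cells of the epididymis were all called lower, and of the 12 sperm and testis markers 2 were called lower. The part of epididymal RNA in these 3 results was not tested.

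Slco6c1 and Slco6d1, which are known from the testis, were detected in eWAT Crtc1+/+ at 1.97 and 0.155 CPM and at 0.818 and 0.155 CPM. In eWAT Crtc1-/- Slco6c1 was at 0.330 and 0 CPM and Slco6d1 had no count, and in liver neither had a count. The sperm transporter Slc22a14 was at 8.42 and 0.466 CPM in eWAT Crtc1+/+ and at 8.95 and 9.30 CPM in eWAT Crtc1-/-, higher in both Crtc1-/- libraries without passing the test (log2 fold change 1.03). It had no count in any liver library.

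**Figure D2:**
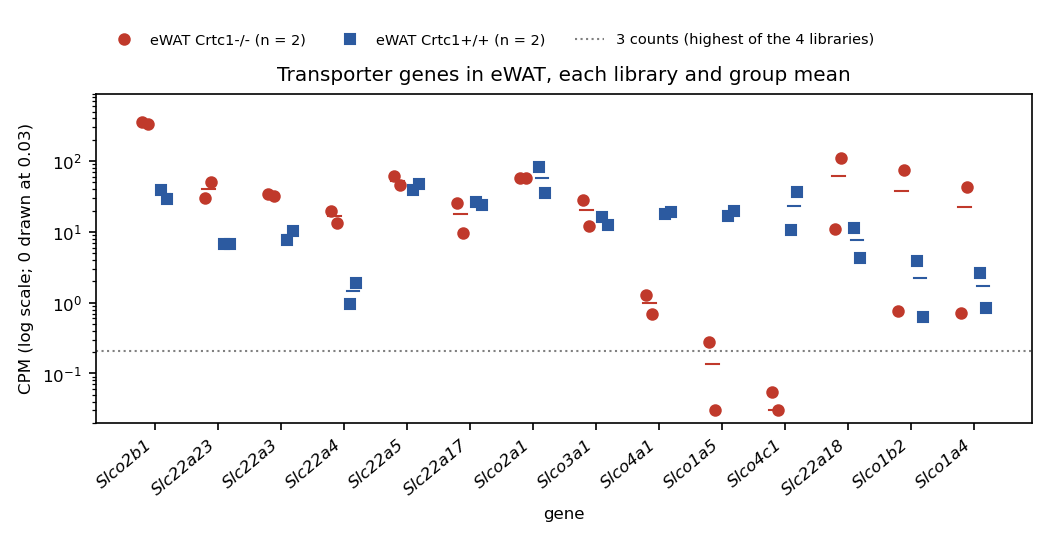
CPM on a log axis of 14 transporter genes in the 4 eWAT libraries; circles are labelled Crtc1-/- and squares Crtc1+/+ (n = 2 each), short lines are group means and the dotted line is 3 counts. Slco2b1, Slc22a23, Slc22a3 and Slc22a4 are higher in both Crtc1-/- libraries, Slco4a1, Slco1a5 and Slco4c1 are lower in both, and Slc22a18, Slco1b2 and Slco1a4 are high in 1 Crtc1-/- library alone.

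A last group of members in eWAT was high in 1 library. The bile acid transporter Slco1b2 was at 3.90 and 0.622 CPM in Crtc1+/+, at 0.769 CPM in Crtc1-/- replicate 1 and at 74.9 CPM in Crtc1-/- replicate 2. In the same order of libraries Slco1a4 was at 2.65, 0.829, 0.714 and 43.7 CPM. Slc22a18 was at 11.3, 4.25, 10.8 and 111 CPM. None of these passed edgeR's test with both libraries, at log2 fold changes of 4.06 for Slco1b2, 3.67 for Slco1a4 and 2.97 for Slc22a18. DESeq2 called Slco1a4 (adjusted p = 0.0452) and Slc22a18 (adjusted p = 0.0208) among 11 members, beside 30% of all genes. Without Crtc1-/- replicate 2 the sign turned for Slco1a4 (-1.28) and Slco1b2 (-1.53).

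Replicate 2 is the library with the high hepatocyte marker sum. Set against that sum, its liver-type transporters lay near the liver libraries. Of 10 members, 7 lay within the range of the 4 liver libraries when given per 100000 CPM of hepatocyte markers, and Slc22a29, Slc22a30 and Slco1b2 lay above it. Slco1a1 was at 11.6 per 100000 there, with 6.84 and 14.8 in liver Crtc1+/+ and 3.37 and 1.33 in liver Crtc1-/-. Slc22a28 was at 0.526, with 0.326 and 0.849 in liver Crtc1+/+ and 0.105 and 0.0252 in liver Crtc1-/-. For these 2 genes the eWAT library labelled Crtc1-/- lay in the range of liver Crtc1+/+ and above that of liver Crtc1-/-. Slco1a4 at 33.2 lay among liver Crtc1-/- (22.6 and 44.95) and above liver Crtc1+/+ (12.0 and 16.1). For some genes closeness to liver on this scale was not particular to replicate 2. In eWAT Crtc1+/+ and then Crtc1-/- replicate 1, Slco1a1 was at 5.02, 14.1 and 13.55, on 6, 2 and 3 counts. Slco1b2 was at 67.7, 84.5 and 63.2 in the same libraries, and at 56.8 in replicate 2. Slc22a18 lay farther from liver there, at 196, 577 and 890.

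**Figure D3:**
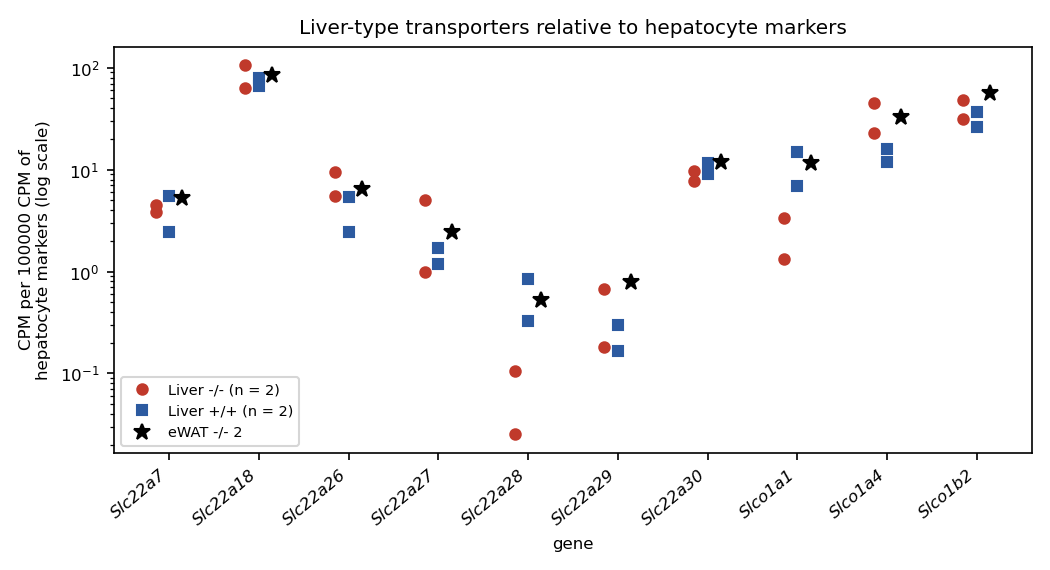
Members of liver type as CPM per 100000 CPM of hepatocyte markers, log axis, in liver Crtc1-/- (circles, n = 2), liver Crtc1+/+ (squares, n = 2) and the single library eWAT Crtc1-/- replicate 2 (star). The star lies within the range of the 4 liver libraries for 7 of 10 genes.

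The calls in eWAT changed with the libraries and the tool used. Without Crtc1-/- replicate 2 (12.3% of all genes called), Slc22a23, Slc22a4, Slco1a5, Slco2b1, Slco4a1 and Slco4c1 were still called and Slc22a3 was not. Without Crtc1-/- replicate 1, 14 members were called, among them all 7, beside 19% of all genes. Without Crtc1+/+ replicate 1 or without Crtc1+/+ replicate 2, 0 were called by edgeR (9 and 8 at an unadjusted p under 0.05). No gene outside the families was called in these 2 fits either, and the log2 fold changes of the 7 kept their sign in each of these fits. With the library size in place of TMM, which moved the median of all genes from -0.05 to -0.35, Slc22a3 was no longer called and the other 6 were. By limma on log2(FPKM + 1) Slco4c1 was not called (adjusted p = 0.0778).

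In liver the same comparison gave no member with an adjusted p under 0.05. Of 19 members tested among 11707 genes, 0 were called by edgeR's quasi-likelihood test, beside 0.0854% of all genes. At an unadjusted p under 0.05 there were 9 members (17.3% of all genes), and DESeq2 called 4 (Slc22a5, Slco1a1, Slco1a4 and Slco2a1), beside 2.66% of all genes. A looser threshold, an unadjusted p under 0.01 with an absolute log2 fold change over 1, was passed by 6 members, beside 4.27% of all genes. These were Slco1a4 above (2.84% of all genes were past it above) and Slc22a5, Slco1a1, Slco2a1, Slc22a3 and Slc22a28 below (1.43%). The median log2 fold change was -0.23 over the 19 members, and 0.0039 over all genes tested.

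The carnitine transporter Slc22a5 was at 45.9 and 33.3 CPM in liver Crtc1+/+ and at 15.9 and 11.3 CPM in liver Crtc1-/-. Both Crtc1-/- libraries lay below both Crtc1+/+ libraries, with a log2 fold change of -1.54 (SE 0.29, adjusted p = 0.0962 by edgeR). Slco2a1 was at 130 and 126 CPM in Crtc1+/+ and at 66.5 and 48.2 CPM in Crtc1-/-, again without overlap, at -1.16 (SE 0.27, adjusted p = 0.127 by edgeR). Slc22a3 was at 3.75 and 5.98 CPM against 2.25 and 1.46 CPM, lower in both Crtc1-/- libraries, at -1.38 (SE 0.42, adjusted p = 0.183 by edgeR). Slc22a23 was at 46.2 and 53.9 CPM against 33.8 and 28.3 CPM. It too did not overlap, at -0.69 (SE 0.25, adjusted p = 0.229 by edgeR).

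Of the neighbouring Slco1 genes of liver, Slco1a1 and Slco1a4 did not overlap between the genotypes. Slco1a1, a transporter of steroid conjugates and bile acids that is known to be higher in male than in female mouse liver, was at 14.01 and 32.9 CPM in Crtc1+/+ and at 6.76 and 3.09 CPM in Crtc1-/-. The Crtc1-/- libraries were both lower, with a log2 fold change of -2.25 (SE 0.48, adjusted p = 0.121 by edgeR). Slco1a4, an organic anion transporter that is known to be higher in females, was at 24.6 and 35.8 CPM in Crtc1+/+ and at 45.4 and 104 CPM in Crtc1-/-. Here the Crtc1-/- libraries were both higher, at 1.31 (SE 0.39, adjusted p = 0.178 by edgeR). The count ratio of Slco1a4 to Slco1a1 within a library was 1.75 and 1.09 in Crtc1+/+ and 6.71 and 33.7 in Crtc1-/-. Slco1b2 overlapped between the genotypes, at 53.8 and 81.7 CPM against 63.4 and 111 CPM.

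The sex-biased genes of mouse liver are given beside these 2 transporters. The 16 measured male-biased genes, such as Elovl3 and Mup7, summed to 9911 and 16293 CPM in liver Crtc1+/+ and to 3687 and 2387 CPM in liver Crtc1-/-, and 15 of 16 tested were lower, 2 of them called (median log2 fold change -1.50). The 21 female-biased genes summed to 394 and 274 CPM against 824 and 1852 CPM, and 16 of 17 tested were higher, 4 of them called (median 1.84). All mice were labelled male. The relation of these lists to the transporters was not tested.

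No member of the OAT cluster of chromosome 19 passed the adjusted threshold in liver by edgeR on all 4 libraries with the filter on low counts. Without that filter Slc22a28 passed. Slc22a28 was low, at 0.667 and 1.89 CPM in Crtc1+/+ and at 0.210 and 0.0583 CPM in Crtc1-/-, with a log2 fold change of -3.16 (SE 0.78, adjusted p = 0.136 by edgeR). Slc22a26 was at 11.03 and 5.45 CPM against 11.2 and 21.9 CPM (adjusted p = 0.267 by edgeR), and Slc22a27 at 3.49 and 2.62 CPM against 1.99 and 11.8 CPM, so that 1 Crtc1-/- library carried its higher mean. Slc22a30 was at 18.4 and 25.7 CPM against 19.6 and 18.0 CPM. Slc22a7, an anion transporter on chromosome 17 that is known from liver, was at 5.03 and 12.3 CPM against 9.06 and 8.87 CPM. The last 2 overlapped between the genotypes, and Slc22a7 did not pass the adjusted threshold either.

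**Figure D4:**
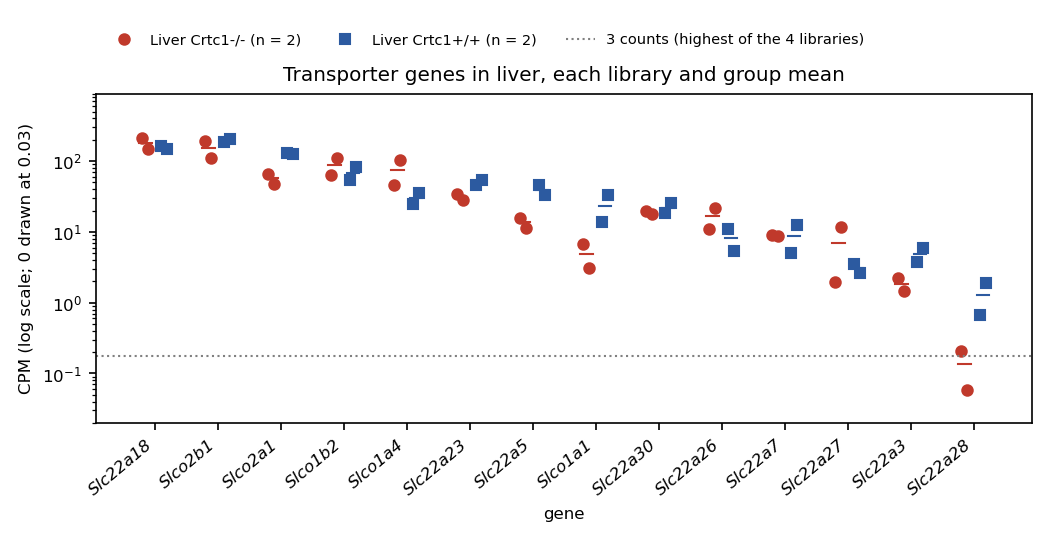
CPM on a log axis of 14 transporter genes in the 4 liver libraries; circles are labelled Crtc1-/- and squares Crtc1+/+ (n = 2 each), short lines are group means and the dotted line is 3 counts. Slco2a1, Slc22a23, Slc22a5, Slco1a1, Slc22a3 and Slc22a28 are lower in both Crtc1-/- libraries. Slco1a4 and Slc22a26 are higher in both, Slc22a26 narrowly (11.2 against 11.03 CPM).

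Over the 19 members tested in liver, 7 had both Crtc1-/- libraries below both Crtc1+/+ libraries, beside 26.4% of all genes tested, and 3 had both above, beside 25.8%. The count of calls moved with the tool and the filter, and with liver Crtc1-/- replicate 1. Without it 8 members were called by edgeR (Slc22a26, Slc22a27, Slc22a28, Slc22a3, Slc22a5, Slco1a1, Slco1a4 and Slco2a1), in a fit where the remaining Crtc1-/- library was assumed to vary like the Crtc1+/+ pair and 12.5% of all genes were called. Without Crtc1-/- replicate 2 the log2 fold change of Slco1a4 was 0.58. That of Slco1a1 lay between -2.92 and -1.51 over the libraries left out. Without the filter on low counts 4 members were called (Slc22a28, Slc22a5, Slco1a1 and Slco2a1), beside 1.89% of all genes.

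Whether the genotype difference itself differed between the tissues was tested as an interaction over all 8 libraries. By edgeR's quasi-likelihood test 6 of 27 members passed an adjusted p of 0.05, beside 6.94% of 15587 genes. Slco1a5, Slc22a2, Slc22a14 and Slc22a16 had no count in liver and Slco4c1 had 1. Their SEs ran from 155 to 12828, so that this test could not judge them. The eWAT and liver comparisons make up this term, so it is not a separate line of evidence. Slco2b1 differed by 3.603 on the log2 scale (SE 0.53, adjusted p = 0.0141 by edgeR), since it was higher in eWAT Crtc1-/- and in liver measured 183 and 205 CPM in Crtc1+/+ against 190 and 112 CPM in Crtc1-/-. Slc22a23 differed by 3.19 (SE 0.47, adjusted p = 0.0143), Slc22a3 by 3.21 (SE 0.52, adjusted p = 0.0178) and Slc22a4 by 3.68 (SE 0.71, adjusted p = 0.0302, all by edgeR). Slc22a4 was at 1.03 and 1.31 CPM in liver Crtc1+/+ and at 1.205 and 0.758 CPM in liver Crtc1-/-.

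For Slc22a5 the interaction was 1.76 (SE 0.38, adjusted p = 0.0416 by edgeR), with the lower liver values given above and overlapping values in eWAT. Slc22a5 was not called with library-size or upper-quartile scaling (adjusted p = 0.103 and 0.0642) or by limma on log2(FPKM + 0.1) and log2(FPKM + 1) (0.0987 and 0.0584), and Slc22a4 was not called with library-size scaling (0.0533). Slco4a1 differed by -5.66 (SE 0.89, adjusted p = 0.0175 by edgeR), and its liver counts were near the floor, at 0.205 and 0.0524 CPM in Crtc1+/+ and 0.262 and 0.408 CPM in Crtc1-/-. The interaction lost all its calls without either liver Crtc1+/+ library, without liver Crtc1-/- replicate 2 or without eWAT Crtc1+/+ replicate 2 (9, 7, 7 and 6 members at an unadjusted p under 0.05). It kept Slco2b1 alone without eWAT Crtc1+/+ replicate 1 or without liver Crtc1-/- replicate 1. Without eWAT Crtc1-/- replicate 1 there were 15 calls beside 13.9% of all genes, 14 of them with a higher difference in eWAT, among them the liver-type Slc22a7, Slc22a18, Slc22a26, Slc22a28, Slc22a30, Slco1a1, Slco1a4 and Slco1b2. Without eWAT Crtc1-/- replicate 2, the library with liver-type RNA, the same 6 members were called, beside 8.37% of all genes.

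**Figure D5:**
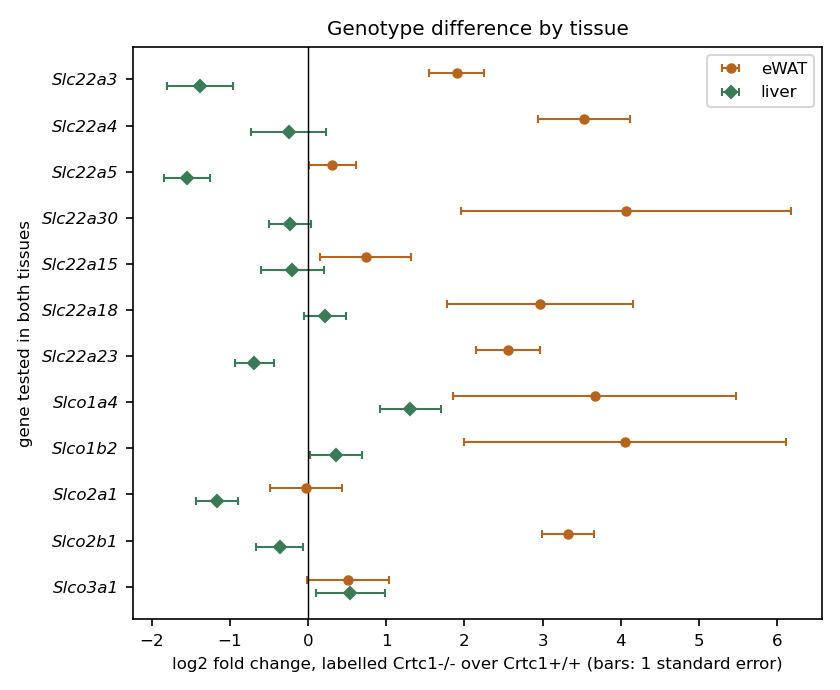
Log2 fold change of labelled Crtc1-/- over Crtc1+/+ for 12 members tested in both tissues; circles are eWAT, diamonds are liver and bars are 1 standard error from edgeR's fit. Slc22a23, Slc22a3, Slc22a4 and Slco2b1 lie to the right in eWAT and at or left of 0 in liver, and the wide eWAT bars of Slc22a30, Slco1a4 and Slco1b2 come with the 1 library that was high.

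The eWAT libraries were also compared with the liver libraries within each genotype. Scaling matters here, because the median over all genes of the eWAT to liver log2 ratio was 0.61 in Crtc1+/+ with TMM and 2.0 with the library size alone. In Crtc1+/+ 22 of 27 members passed an adjusted p of 0.05 by edgeR, beside 54.9% of all genes, 8 higher in eWAT (35% of all genes) and 14 lower (19.8%). The 14 lower members were the liver-type transporters, with Slco1a1 at -8.03 and Slco1b2 at -6.10, together with Slco2b1 (-3.72), Slco2a1 (-2.33), Slc22a23 (-4.10) and Slc22a5 (-1.10). The direction for Slc22a5 turned with library-size scaling (0.29). The median over the members was -2.33.

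Higher in eWAT Crtc1+/+ than in liver Crtc1+/+ were Slco1a5, Slco4c1, Slco4a1, Slc22a16, Slc22a14, Slc22a17, Slc22a21 and Slco3a1. Slco1a5 had no count in liver and was at least 101-fold higher in eWAT, with Slc22a16 at least 32.9-fold and Slc22a14 at least 25.4-fold higher, where liver was set to 3 counts over both libraries and TMM factors of all 8 libraries were used. Slc22a17, a receptor for lipocalin, was at 26.6 and 23.9 CPM in eWAT Crtc1+/+, at 25.9 and 9.64 CPM in eWAT Crtc1-/- and at 0.154 to 0.681 CPM in liver. Slco3a1, a broadly expressed carrier of prostaglandins and thyroxine, was at 16.0 and 12.3 CPM, at 28.6 and 11.9 CPM and at 1.39 to 2.62 CPM in the same order. These 2 genes were above all liver libraries in both genotypes, also when scaled over all 8 libraries. So were Slc22a14, Slc22a16, Slc22a21 and Slc22a2, the last with 1 count in 1 eWAT library.

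In Crtc1-/- 6 of 27 members were called between the tissues, beside 27.8% of all genes, and all 6 were higher in eWAT (18.9% of all genes). They were Slc22a14, Slc22a17, Slc22a2, Slc22a3, Slc22a4 and Slco3a1. Slc22a2 had no count in liver and was at least 14.2-fold higher, and Slc22a14 at least 44.3-fold. By edgeR 0 members were called lower in eWAT (8.89% of all genes), with 12 members at an unadjusted p under 0.05 in either direction (43.4% of all genes). DESeq2 called 10, of which 4 were lower (Slc22a18, Slc22a26, Slco1a4 and Slco2a1), beside 33.4% of all genes, and limma on log2(FPKM + 1) called 4 lower. Without eWAT Crtc1-/- replicate 2, the library with liver-type RNA, 17 members were called beside 36.2% of all genes, 6 higher and 11 lower. Slc22a7, Slc22a18, Slco1a1, Slco1a4 and Slco1b2 were among those lower. There were 3 and 2 calls without liver Crtc1-/- replicate 1 or 2. Slc22a3 and Slc22a4 were thus higher in eWAT than in liver among Crtc1-/- libraries, at 2.87 and 2.77 on the log2 scale (adjusted p = 0.00281 and 0.0103 by edgeR). In Crtc1+/+ they were not called by edgeR with TMM, and other settings went in opposite directions. With library-size scaling Slc22a3 was called higher in eWAT Crtc1+/+, and both limma fits called Slc22a3 and Slc22a4 lower there.

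The partners of these transporters were read from 4 lists. Of 19 measured genes that work with bile acids and organic anions, 17 were tested in eWAT, of which 1 was called higher and 1 lower in Crtc1-/-. Pdzk1, a scaffold that anchors several of these transporters at the membrane, was at 258 and 346 CPM in eWAT Crtc1+/+ and at 15.8 and 33.0 CPM in eWAT Crtc1-/-, and fell by 3.63 on the log2 scale (SE 0.50, adjusted p = 0.0225 by edgeR). The drug efflux pump Abcb1b rose by 2.45 (SE 0.51, adjusted p = 0.0458 by edgeR). In liver 0 of 18 were called by edgeR. Of the 18, 12 had a log2 fold change below 0, with a median of -0.32 beside 0.0039 over all genes tested.

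Among the 12 carnitine genes 11 were tested in eWAT, where 3 were called higher and 1 lower in Crtc1-/-. The mitochondrial carnitine acyltransferases Cpt2 and Crat rose by 2.44 (SE 0.30, adjusted p = 0.0194) and 2.43 (SE 0.36, adjusted p = 0.0252 by edgeR), and the carnitine carrier Slc25a20 rose by 2.01. Slc25a29, a mitochondrial carrier of basic amino acids, fell by 1.91 on the log2 scale. In liver 0 of 11 were called by edgeR. All 11 had a log2 fold change below 0, with a median of -0.34 beside 0.0039 over all genes tested. The share of all genes below 0 was not counted. Some of the 11 overlapped between the genotypes, such as Cpt1a (327 and 442 CPM in Crtc1+/+, 348 and 167 CPM in Crtc1-/-). Others did not, such as Cpt2 (349 and 318 CPM against 200 and 160 CPM).

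Of the 9 urate genes 8 were tested in eWAT, where Xdh, the enzyme that makes urate, was called higher and Pdzk1 lower. Xdh was at 25.9 and 30.7 CPM in Crtc1+/+ and at 217 and 205 CPM in Crtc1-/- (log2 fold change 2.90, SE 0.29, adjusted p = 0.0169 by edgeR). The urate transporter Slc22a12 itself reached 1.04 CPM in 1 eWAT Crtc1-/- library, and it was not tested. Of 13 prostaglandin and thyroid hormone genes in eWAT, the thyroid hormone receptor Thra was called higher and the prostaglandin synthase Ptgs2 lower. Ptgs2 was at 16.7 and 6.58 CPM in Crtc1+/+ and at 0.165 and 0 CPM in Crtc1-/-. In liver 0 of 9 urate genes and 0 of 10 prostaglandin and thyroid hormone genes were called by edgeR. The partner lists were counted against the same background shares as the members, and their link to tissue make-up was not tested.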

How the data were processed

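RNA-seq of liver and eWAT was analysed from 2 tables of 8 libraries, 2 per group. The authors deposited estimated counts per gene, which were not whole numbers for 5.44% to 9.98% of values per library. They were rounded. The authors also deposited FPKM values, used here to compare levels between genes and in the limma fits. The labels name Bowtie2, HISAT and build GRCm38.p6, and the counting tool is not given in the sources used here. Genes were tested with edgeR 4.0.16 (quasi-likelihood test, filterByExpr, TMM, Benjamini-Hochberg over all genes tested, prior count 2 for the moderated values) in R 4.3.3, within each tissue for genotype and over all 8 libraries for the interaction and the tissue comparisons. CPM were scaled by TMM within a tissue, and fold bounds between tissues by TMM over all 8 libraries. The study's methods used limma, which was run as an alternative on quantile-normalized log2(FPKM + 0.1) and log2(FPKM + 1) with limma 3.58.1, as was DESeq2 1.42.0. The edgeR and DESeq2 fits were tested on simulated counts and returned the simulated directions, but at the spread of the eWAT libraries edgeR passed none of the changed genes in that test data. Ratios of summed counts have exact 95% intervals that cover counting error only. The depth per library, 16560070 to 19721464 counts, limits members of few counts.

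The members, the partner and marker lists and the tests were chosen with earlier results of these data known. Named with values were the members called in a genotype or interaction test, the 5 of highest mean CPM per group and 15 members chosen for their known roles, 20 in all, of which 1 is not reported here, although it stays in the counts of members. Of the partner lists up to 4 called genes were named. Other members, such as Slc22a2, Slc22a14, Slc22a16, Slc22a21 and those of the chromosome 19 cluster, were named after their values were seen. Genes with no count in liver have no meaningful fold change and were given a bound from 3 counts over both libraries of the group. Promoter sequences and gene positions are from RefSeq (GRCm38.p6), and all 39 members matched a position. Replicate pairs of each group differed by more than counting noise, so each library was kept as 1 sample. Alternatives were other scalings, filters and tools, a replicate block, leaving out the epididymis markers and leaving out each library.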

Additional observations from a re-analysis of the deposited data

Results flagged for a closer look

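The genotype difference, labelled Crtc1-/- over Crtc1+/+, differed between eWAT and liver for 6 members by edgeR's interaction test at an adjusted p under 0.05. The difference of the log2 fold changes, eWAT minus liver, was 3.603 for Slco2b1, 3.68 for Slc22a4, 3.21 for Slc22a3, 3.19 for Slc22a23, 1.76 for Slc22a5 and -5.66 for Slco4a1. Each rests on 2 libraries per group, and the eWAT groups also differed in their epididymis, adipocyte and endothelial marker sums. The part of these in the 6 differences was not tested. No group held 4 or more libraries, so no library was tested as an outlier.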

How the results depend on the processing

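Over 37 results for named members, 26 kept their direction under every alternative run. In eWAT the count of called members (7) was 11 with DESeq2, 0 with the replicate block (9 at an unadjusted p under 0.05, adjusted p 0.0543 to 0.0645 for the 7, and 0 of all genes called) and 0 to 14 when leaving out 1 library each. In liver (0) it was 4 with DESeq2, 4 with no expression filter, 1 with the replicate block (Slc22a5) and 0 to 8 when leaving out 1 library each. For the interaction (6) the range was 0 to 15, for tissue in Crtc1+/+ (22) it was 11 to 23, and for tissue in Crtc1-/- (6) it was 2 to 17, with 10 by DESeq2. The replicate block left the interaction at 6 and moved the 2 tissue counts to 20 and 5. Over all genes, the eWAT count of 1875 was 4620 with DESeq2. Replicate numbers were given in the labels, but the correlation of same-number deviations was 0.0054 between the eWAT groups and 0.057 between the liver groups, and 0.037 to 0.16 between groups of different tissue, so the numbers were not taken to pair the samples. Log2 fold changes that turned in eWAT were those of Slco2a1 (0.080 with no expression filter, 0.11 with the replicate block, 0.056 without epididymis genes, and -0.49 to 0.74 over the libraries left out), Slc22a17 (-1.38 to 0.0068), Slco1a4 (-1.28 to 4.84), Slco1b2 (-1.53 to 6.02) and Slco3a1 (-0.24 to 0.99). Those that turned in liver when a library was left out were Slc22a18 (-0.052 to 0.44), Slc22a4 (-0.61 to 0.036), Slc22a7 (-0.47 to 0.82), Slco1b2 (-0.10 to 0.72), Slc22a27 (-0.62 to 1.96) and Slc22a29 (-0.43 to 1.68). The cause was not tested, other than that leaving out a library leaves fewer samples. Leaving out a library leaves 1 sample in a group, which is then assumed to vary like the rest.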
